A study of Mus musculus with 6 samples.

Results

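Extracellular matrix of the vessel wall was followed in brain vascular cells through 32 genes: chains of collagens and laminins, nidogens, heparan sulfate proteoglycans, elastic fibre proteins, and proteins that bind or remodel these. They were taken as a list of gene symbols, and all 32 were found among the 32287 genes of the count tables. Single cells came from 6 male mice at an age of 12 months, with 1 library of 3′ transcript counts per mouse: 3 WT mice, labelled C57BL/6J, and 3 mice of the TgApp ArcSwe line, labelled AppArcSwe and called ArcSwe below. ArcSwe is an Alzheimer's disease model that carries a human APP transgene with the Arctic and the Swedish mutations, and the study used it for its amyloid deposits in vessel walls; the promoter of the transgene is not given in the sources used here. The mice were untreated, and cells were freed from vessel fragments of a cerebral hemisphere that had been captured with CD31-coated beads. Of 49059 cells deposited, 44112 passed the filter, and 27632 fell into 6 vascular classes.

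A basement membrane is a thin sheet on which endothelial cells sit and in which pericytes are embedded. Laminins, each built of an α, a β, and a γ chain, and collagen IV form its networks, which nidogens and the proteoglycan perlecan tie together. In arteries, layers of smooth muscle alternate with elastic fibres of elastin and fibrillin. Endothelial and mural cells of the brain both add to this matrix, so the questions were which cells held the transcripts of each gene, and whether the levels differed between WT and ArcSwe mice.

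The classes were named from marker genes that did not include any of the 32 genes: arterial-like, capillary-like, and venous-like endothelial cells (together the barrier, or BBB, endothelial-like cells), fenestrated-like endothelial cells, which line vessels without a blood-brain barrier, smooth muscle-like cells (VSMC), and pericyte-like cells. Levels are CPM: the UMIs (counted transcript molecules) of a gene, added up over all cells that a mouse had in the class and given per 1000000 UMIs of that mouse and class. Marker sums of other cell types were low but not 0, except that pericyte markers were not low in smooth muscle-like cells. Summed over 10 markers, smooth muscle markers in the barrier endothelial-like cells stood at 0.135 to 0.471% of their level in smooth muscle-like cells, pericyte markers at 0.108 to 0.374% of their level in pericyte-like cells, and endothelial markers in pericyte-like cells at 1.21 to 4.58% of the endothelial level. Pericyte markers in smooth muscle-like cells reached 12.0 to 15.9% of the pericyte level. Microglia-like cells, 2250 in number, served as the class that should lack most of these genes, and 31 of the 32 genes had a lower mean there than in their highest vascular class. The exception was *Sparc*, at 1511 CPM in microglia-like cells. The pericyte-like class was small: WT replicates 1 to 3 gave 31, 19, and 76 such cells and ArcSwe replicates 29, 15, and 132, whereas the smooth muscle-like class held 169 to 708 cells per mouse. WT replicate 3 stood apart, since 50.4% of its smooth muscle-like cells fell into 1 sub-cluster, called s2, that held 3.64 to 8.28% in the other mice. ArcSwe replicate 3 gave 1612 of the 2628 cells of capillary-like cluster 7 and 1209 of the 1831 of cluster 9. WT replicate 3 gave 741 cells of cluster 7, and each other mouse 13 to 156. Median UMIs per cell were lowest in ArcSwe replicate 3 (2922) and WT replicate 3 (3271.5), against 3958 to 5542 in the other mice.

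Each gene was assigned to a source, the class with the highest mean CPM over the 6 mice. Pericyte-like cells were the source of 10 genes, arterial-like cells of 9, fenestrated-like and smooth muscle-like cells of 6 each, and venous-like cells of 1, while capillary-like cells were the source of none. In 20 genes the source ranked first in each of the 6 mice, and in 16 the lowest mouse of the source lay above the highest mouse of every other class. The source exceeded the second class at least 2-fold in 17 genes and at least 10-fold in 6. The genes divided evenly between the walls: 16 were higher in a mural class than in every endothelial class, and 16 the other way round. These are descriptions of classes built from the same cells, with no test between classes.

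**Figure D1:**
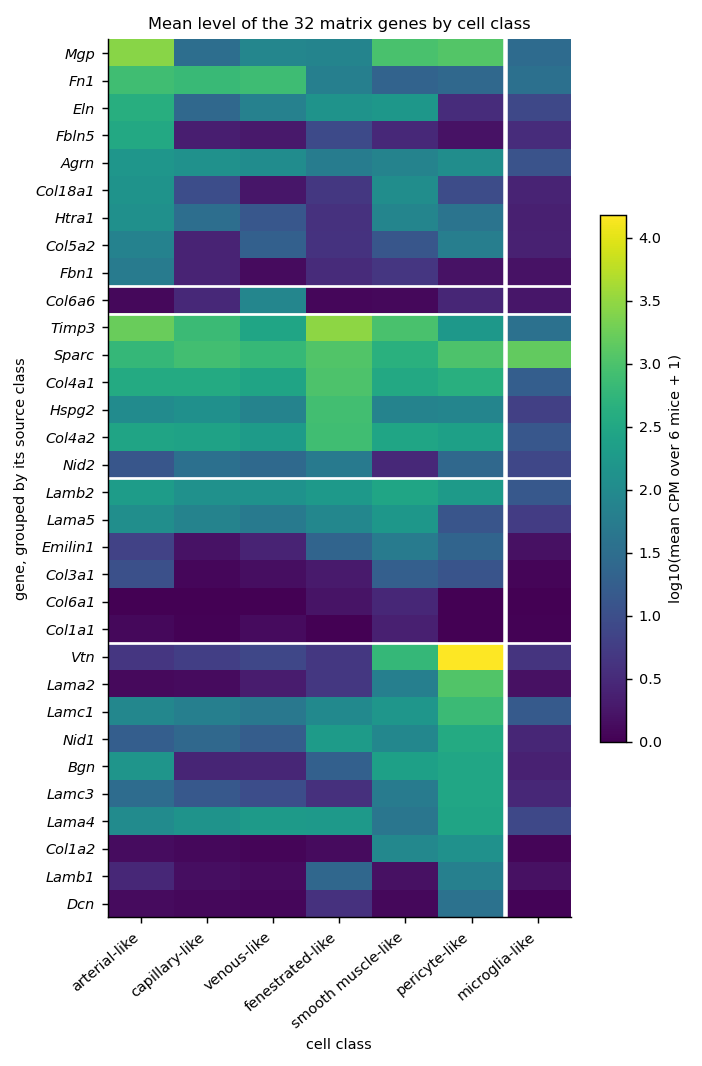
Mean level of each of the 32 genes (rows, grouped by source class) in the 6 vascular classes and in microglia-like cells (columns), as log10 of the mean CPM over 6 mice plus 1. Vtn in pericyte-like cells is the brightest cell, and Sparc is the only gene that is bright in microglia-like cells.

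Among the collagen IV chains, which form the network of every basement membrane, *Col4a1* and *Col4a2* were highest in fenestrated-like cells in 6 of 6 mice. *Col4a1* stood at 980, 1070.1, and 1048 CPM there in the WT mice and at 1055, 1249.6, and 770.0 CPM in the ArcSwe mice, above the highest value of any other class, 600.4 CPM. In the other 5 classes its mean lay between 279 and 433 CPM, so no class was without it. *Col4a2* followed, with a mean of 786 CPM in fenestrated-like cells and 193 to 285 CPM elsewhere. The pair is transcribed in opposite directions from a shared start region on chromosome 8, and the chains join in 1 heterotrimer. More UMIs were counted for *Col4a1* than for *Col4a2* in each of the 6 mice in all 6 classes, by 1.02 to 1.54-fold outside pericyte-like cells and by 1.44 to 2.71-fold in pericyte-like cells; these are 3′ counts, which hold 1 end of each transcript and were not divided by length. In RefSeq the genes overlap by 22 bases at their starts (chr8:11312805-11312826, GRCm38), shown here on the plus strand because the RefSeq starts of both genes bound these bases.

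Col4a1 and Col4a2 overlap: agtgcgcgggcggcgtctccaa

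*Col18a1*, whose product is a basement membrane collagen that carries endostatin at its end, was an arterial wall gene here, with a mean of 141 CPM in arterial-like and 112 CPM in smooth muscle-like cells, against 8.85 CPM in capillary-like cells. Venous-like cells held 0.794 CPM.

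Several laminin chains were highest in pericyte-like cells. *Lama2*, the α2 chain, stood at 961, 1139, and 1334 CPM in the pericyte-like cells of WT mice and at 785, 1310.3, and 1037 CPM in those of ArcSwe mice. Its mean of 1094 CPM was 17.1-fold that of smooth muscle-like cells, 63.8 CPM, and no endothelial class reached 4 CPM on average. *Lama5*, the α5 chain of endothelial and muscle basement membranes, was nearly the reverse, with 162 CPM in smooth muscle-like and 113 CPM in arterial-like cells, and 7 UMIs in all pericyte-like cells together, where the ArcSwe mice had none. *Lama4*, the α4 chain of endothelial laminins, was highest in pericyte-like cells (270 CPM) and next in venous-like cells (190 CPM), and among the barrier zones it was venous in 6 of 6 mice. Pericyte-like values ran from 166 to 449 CPM and overlapped the venous-like values.

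The β chains separated more sharply. *Lamb2* was present in every class at 128 to 282 CPM, highest in smooth muscle-like cells. *Lamb1* stood at 64.0 CPM in pericyte-like and 23.4 CPM in fenestrated-like cells and below 2 CPM in the 4 other classes. *Lamb2* UMIs exceeded those of *Lamb1* 57.3 to 1007-fold in the arterial-like and capillary-like cells of single mice, but only 1.67 to 4.38-fold in pericyte-like cells and 5.14 to 12.5-fold in fenestrated-like cells. Of the γ chains, *Lamc1* and *Lamc3* were both highest in pericyte-like cells in 6 of 6 mice, *Lamc1* at 695 CPM, 4.41-fold above smooth muscle-like cells, and *Lamc3* at 297 CPM, 5.55-fold above. *Lamc1* exceeded *Lamc3* in every class and mouse, and the ratio was widest in fenestrated-like cells, where *Lamc3* had 9 UMIs.

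**Figure D2:**
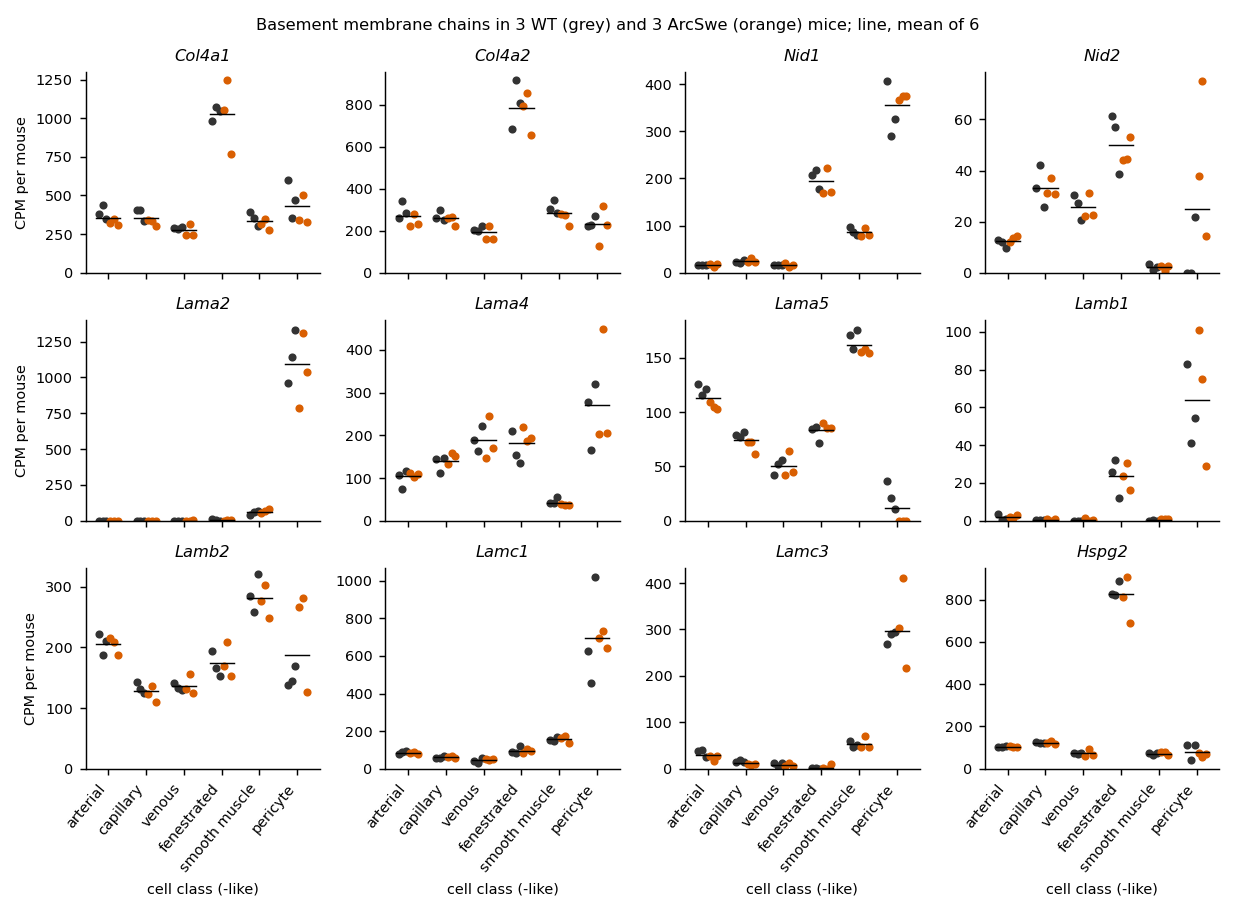
CPM per mouse (points; grey for 3 WT and orange for 3 ArcSwe mice, line for the mean of 6) of 12 basement membrane genes in 6 classes. Lama2, Lamc1, and Lamc3 stand out in pericyte-like cells, and Col4a1, Col4a2, and Hspg2 in fenestrated-like cells, in mice of both groups.

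The linkers and proteoglycans had different sources. *Nid1* was highest in pericyte-like cells in 6 of 6 mice, at 356 CPM, followed by fenestrated-like cells at 194 CPM. *Nid2* was highest in fenestrated-like cells (49.8 CPM) and next in capillary-like cells (33.3 CPM). *Nid1* outweighed *Nid2* 29.0 to 126-fold in smooth muscle-like cells, whereas *Nid2* was the higher of the pair in venous-like cells of all 6 mice and in capillary-like cells of 5. *Hspg2*, which encodes perlecan, stood at 827, 824, and 887 CPM in the fenestrated-like cells of WT mice and at 811, 906, and 691 CPM in those of ArcSwe mice, 6.68-fold above capillary-like cells, with no overlap with any other class. *Agrn*, which encodes agrin, was broadly spread, with means of 55.0 to 153 CPM and its highest value in arterial-like cells.

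The elastic fibre genes were arterial. *Fbln5*, a fibulin that elastic fibre assembly needs, stood at 403, 161, and 269 CPM in the arterial-like cells of WT mice and at 474, 311, and 394 CPM in those of ArcSwe mice. Its mean of 335 CPM was 43.5-fold that of the next class, fenestrated-like cells at 7.70 CPM. *Eln*, elastin itself, followed with 424 CPM in arterial-like cells and 161 CPM in smooth muscle-like cells. *Fbn1*, the fibrillin of microfibrils, was at 54.7 CPM in arterial-like cells and 3.55 CPM or less in every other class. *Emilin1*, a glycoprotein of elastic fibres, was instead highest in smooth muscle-like cells in 6 of 6 mice, at 54.0 CPM. *Fn1*, which encodes fibronectin, belonged to all 3 barrier zones, at 778, 685, and 750 CPM in arterial-like, capillary-like, and venous-like cells, where the arterial-like and venous-like mice overlapped, and at 62.1 CPM or less in the other classes. In single mice it stood at 734, 739.8, and 773 CPM in the venous-like cells of WT and 751, 815, and 688 CPM in those of ArcSwe mice, and in capillary-like cells at 680.0, 695, and 656 CPM in WT and 694, 715, and 669 CPM in ArcSwe mice.

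Fibrillar and beaded-filament collagens were low. *Col1a2* was a mural gene, at 130 CPM in pericyte-like and 87.1 CPM in smooth muscle-like cells and below 1 CPM in each endothelial class. *Col1a1*, its partner in type I collagen, had 11 UMIs in all smooth muscle-like cells and none in pericyte-like cells, and *Col6a1* had 28 UMIs in its source, so neither source is more than nominal. Of those *Col1a1* UMIs, all but 1 came from ArcSwe replicate 2. *Col3a1* stood at 17.5 CPM in smooth muscle-like cells, 11.0 CPM in pericyte-like cells, and 9.60 CPM in arterial-like cells. *Col5a2* was arterial among the endothelial zones, at 71.7 CPM, and its values overlapped those of pericyte-like cells (59.9 CPM). *Col6a6*, a collagen VI chain, was the 1 venous gene of the list. It stood at 94.7, 67.5, and 74.6 CPM in the venous-like cells of WT mice and at 93.9, 53.0, and 101 CPM in those of ArcSwe mice, 40.7-fold above the capillary-like mean of 1.98 CPM.

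Matrix-binding proteins held the highest levels of all. *Vtn*, which encodes vitronectin, an adhesive glycoprotein, stood at 17124.5, 16024, and 13112 CPM in the pericyte-like cells of WT mice and at 15652, 12953.5, and 15941 CPM in those of ArcSwe mice, 24.9-fold above smooth muscle-like cells and below 7 CPM on average in each endothelial class. *Mgp*, matrix Gla protein, an inhibitor of calcification, was highest in arterial-like cells in 6 of 6 mice, with 2945, 1740.5, and 2528 CPM in the WT and 3444, 2619, and 3337.5 CPM in the ArcSwe mice and a mean of 2769 CPM. It was also among the 3 highest genes of pericyte-like (998, 1014, and 1426 CPM in WT and 772, 1292, and 1437 CPM in ArcSwe mice) and smooth muscle-like cells (949 CPM), but stood at only 30.8 CPM in capillary-like cells. Of the small leucine-rich proteoglycans, *Bgn* was mural and arterial, at 302 CPM in pericyte-like, 235 CPM in smooth muscle-like, and 152 CPM in arterial-like cells. *Dcn* had 34 UMIs in pericyte-like cells and under 3 CPM on average elsewhere. *Sparc*, a counter-adhesive collagen-binding protein, was broad, at 445 to 1115 CPM, with capillary-like cells highest of the barrier zones in 6 of 6 mice. In fenestrated-like cells it was at 1149, 1092, and 1001 CPM in WT and 1159.8, 1233, and 1053 CPM in ArcSwe mice, and in venous-like cells at 616, 573, and 653 CPM in WT and 618, 705, and 681 CPM in ArcSwe mice. *Timp3*, a metalloproteinase inhibitor bound to matrix, stood at 3102, 3917, and 2476 CPM in the fenestrated-like cells of WT mice and at 2749.9, 3212, and 2371 CPM in those of ArcSwe mice, and was second in arterial-like cells, at 1611, 2013, and 1561 CPM in WT and 1779, 1523, and 1715 CPM in ArcSwe mice. In smooth muscle-like cells it stood at 980.5, 1074, and 1025 CPM in WT and 844, 989, and 853 CPM in ArcSwe mice. Its capillary-like values were 743, 982, and 569.7 CPM in WT and 701, 603, and 705 CPM in ArcSwe mice, and its venous-like values 234, 366, and 214 CPM in WT and 279, 345, and 261 CPM in ArcSwe mice, the lowest zone of the barrier. *Htra1*, a secreted protease whose loss causes a small vessel disease in humans, was arterial (124 CPM) and smooth muscle-like (78.0 CPM).

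Within the barrier endothelium most genes had a preferred zone. Zones were set by marker level relative to the highest cluster. The venous-like cells included cluster 11, with venous markers at 49.4% and capillary markers at 85.4%. Cluster 14, also venous-like, stood at 100 and 28.9%. Of the 32 genes, 16 were highest in arterial-like cells in 6 of 6 mice, among them *Mgp* (89.8-fold over capillary-like cells), *Bgn* (87.1-fold), *Col5a2* (45.1-fold), *Fbn1* (34.4-fold), and *Eln* (17.1-fold). Capillary-like cells led in 6 of 6 mice for 4 genes of the basement membrane, *Nid1*, *Nid2*, *Hspg2*, and *Sparc* (*Nid2* at 33.3 CPM against 12.4 CPM in arterial-like cells), and venous-like cells for *Col6a6* and *Lama4*.

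The 5′ flanks of 4 genes with a strong source are printed for comparison, 1 per class: each is the part of a RefSeq window of 250 bases before to 50 after the gene's start that lies outside annotated exons, in GRCm38, written 5′ to 3′ on the gene's strand. Capitals mark TATAA or GGGCGG on either strand (TTATA and CCGCCC on the other), the letters of a TATA box and of a GC box.

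Fbln5, arterial-like, chr12:101819120-101819369, minus strand: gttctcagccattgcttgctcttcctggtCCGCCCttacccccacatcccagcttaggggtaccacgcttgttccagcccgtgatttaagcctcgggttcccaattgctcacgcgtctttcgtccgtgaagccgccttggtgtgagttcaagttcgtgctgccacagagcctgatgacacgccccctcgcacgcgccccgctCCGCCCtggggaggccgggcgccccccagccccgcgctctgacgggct

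Col6a6, venous-like, chr9:105828161-105828335, minus strand: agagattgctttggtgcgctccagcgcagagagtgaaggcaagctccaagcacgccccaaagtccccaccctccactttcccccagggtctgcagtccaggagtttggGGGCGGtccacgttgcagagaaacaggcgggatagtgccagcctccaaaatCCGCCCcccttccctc

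Hspg2, fenestrated-like, chr4:137468553-137468768, plus strand: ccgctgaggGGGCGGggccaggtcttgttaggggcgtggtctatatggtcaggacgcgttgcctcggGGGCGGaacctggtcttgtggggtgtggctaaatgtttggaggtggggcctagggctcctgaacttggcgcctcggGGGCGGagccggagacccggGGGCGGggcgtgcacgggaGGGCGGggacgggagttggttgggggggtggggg

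Vtn, pericyte-like, chr11:78498870-78499090, plus strand: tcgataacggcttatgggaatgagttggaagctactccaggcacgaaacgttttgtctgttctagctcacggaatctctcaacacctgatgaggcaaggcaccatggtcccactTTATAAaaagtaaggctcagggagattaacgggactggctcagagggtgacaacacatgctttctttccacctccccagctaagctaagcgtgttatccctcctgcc

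The *Hspg2* flank, at 70.8% G and C, held GGGCGG 5 times, the *Fbln5* and *Col6a6* flanks 2 times each, and the *Vtn* flank, at 49.8% G and C, held no GGGCGG and 1 TTATAA, which reads TATAA on both strands. Windows of 300 bases were on hand for 22 of the 32 genes, 25 windows in all. GGGCGG was in 17 of the 25, against 35.7% of 32851 windows of all genes, TATAA in 6, against 24.9%, and the CArG box, the motif bound by serum response factor, in 1, that of *Lama2*, against 1.63%. A match is a description of letters and not of a bound site.

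Single classes were not uniform in matrix genes. Arterial-like cells fell into 2 clusters, and most of the elastic fibre transcripts came from the smaller, cluster 12, led by *Fbln5*, *Cytl1*, *Pi16*, and *Mgp*. It held 27.8 to 38.2% of the arterial-like cells of each mouse. With all mice summed, *Fbln5* stood at 915 CPM in cluster 12 and 27.6 CPM in cluster 6, *Bgn* at 439 and 8.25 CPM, *Eln* at 983 and 129 CPM, *Mgp* at 6304 and 922 CPM, and *Col3a1* at 29.1 and 0.0736 CPM, while *Col4a1* was the other way round, at 276 and 389 CPM. In smooth muscle-like cells, *Mgp* came mainly from a sub-cluster of 224 cells, s6, led by *Pappa2*, which held 6597 CPM against 255 to 1772 CPM in the other sub-clusters. A sub-cluster with pericyte markers, s7, led by *Rgs5*, held *Vtn* at 2783 CPM, against 0 to 985 CPM in the others, and *Lama2* at 250 CPM. The highest *Eln* (844 CPM), *Col3a1* (206 CPM), and *Col18a1* (549 CPM) of the smooth muscle-like sub-clusters were in s8, which had 98 cells, 38 of them from WT replicate 3. *Bgn*, at 210, 183, and 249 CPM in the smooth muscle-like cells of WT and 247, 277, and 246 CPM in those of ArcSwe mice, was also highest in s8 (627 CPM) and s6 (537 CPM). Capillary-like cells varied too: with all mice summed, *Timp3* stood at 1530 CPM in cluster 2 and 394 to 605 CPM in the other capillary-like clusters. Cluster 2 held 508 of the 686 *Col18a1* UMIs of the class, and cluster 3 held 123 of the 158 *Col6a6* UMIs. The share of cluster 2 was highest in WT replicate 2 (761 of 2890 capillary-like cells) and lowest in ArcSwe replicate 3 (469 of 4674). The clusters and sub-clusters were looked at after the values of their genes were seen and were not tested.

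**Figure D3:**
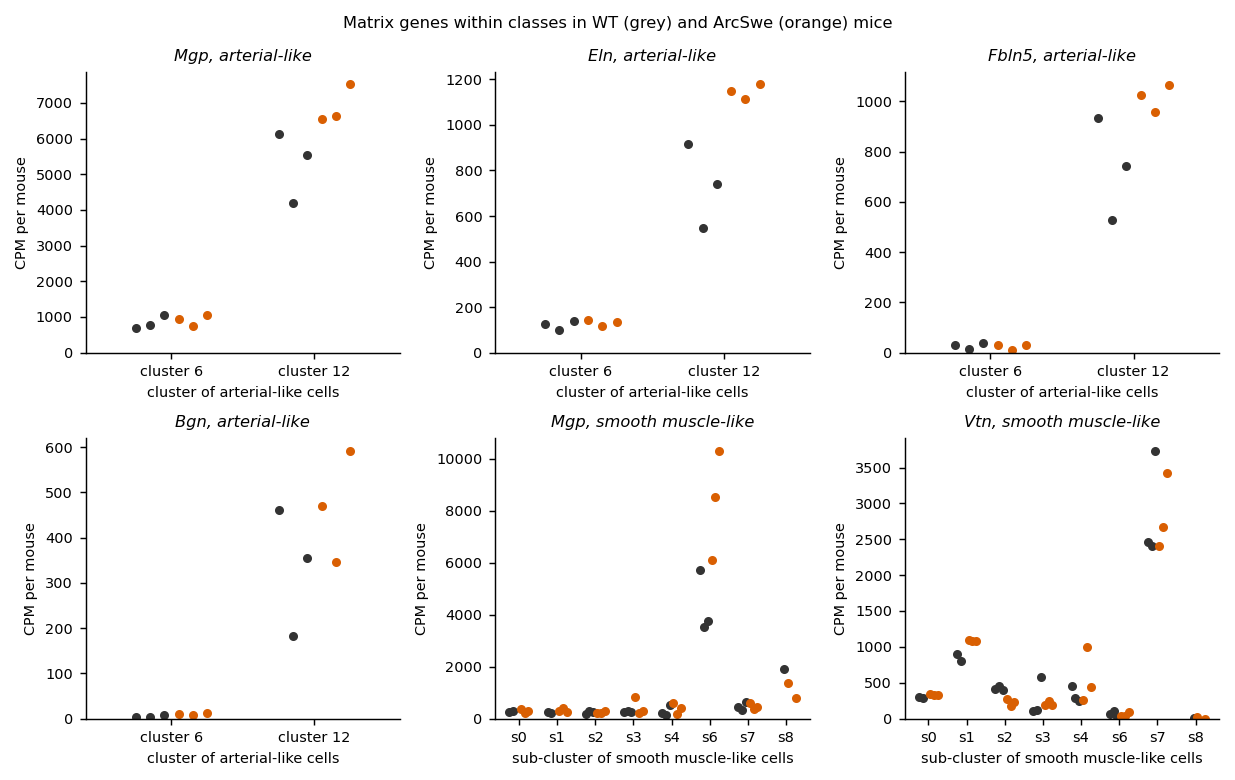
CPM per mouse (points; grey for WT and orange for ArcSwe) of 4 genes in the 2 arterial-like clusters and of Mgp and Vtn in the sub-clusters of smooth muscle-like cells; mice with under 10 cells in a sub-cluster are not drawn. Mgp is concentrated in cluster 12 and s6, and Vtn in s7, in mice of both groups.

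For the comparison of genotypes, summed UMIs were tested with edgeR's quasi-likelihood test in each class, over all genes with sufficient counts, at a Benjamini-Hochberg adjusted p under 0.05. The mouse *App* gene, given once as a check, did not separate the groups, with log2 fold changes of 0.00 in barrier endothelial-like, 0.04 in smooth muscle-like, and -0.28 in pericyte-like cells (edgeR, adjusted p of 0.975 or more); the human transgene is not in the reference that was used. None of the 32 genes passed the threshold in any class. In barrier endothelial-like cells, 27 were tested and 0 called, as were 0% of 13451 genes. In arterial-like cells it was 0 of 25 (0.00922% of 10848 genes), in capillary-like cells 0 of 24 (0% of 12880), in venous-like cells 0 of 19 (0% of 9687), in fenestrated-like cells 0 of 17 (0% of 6751), in smooth muscle-like cells 0 of 25 (0% of 10114), and in pericyte-like cells, with 2 mice in each group, 0 of 17 (0% of 3236). The smallest adjusted p of a member was 0.936, in capillary-like cells (edgeR). At an unadjusted p under 0.05, the numbers were 2, 1, 1, 2, 0, 3, and 1 in the same order, against 4.45, 4.1, 4.82, 3.48, 4.4, 4.5, and 4.67% of all genes. DESeq2 called 1 member, *Mgp* in smooth muscle-like cells, and 0 in the 6 other comparisons.

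The median log2 fold change of the members tested, ArcSwe over WT, was 0.14 in barrier endothelial-like cells, with 18 above 0 and 9 below, where all genes had a median of 0.00. It was 0.15 in arterial-like cells (18 above and 7 below, all genes -0.01), 0.03 in capillary-like, 0.02 in venous-like, -0.01 in fenestrated-like, 0.03 in smooth muscle-like, and -0.19 in pericyte-like cells (5 above and 12 below, all genes 0.00). In every class the groups overlapped for most members.

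**Figure D4:**
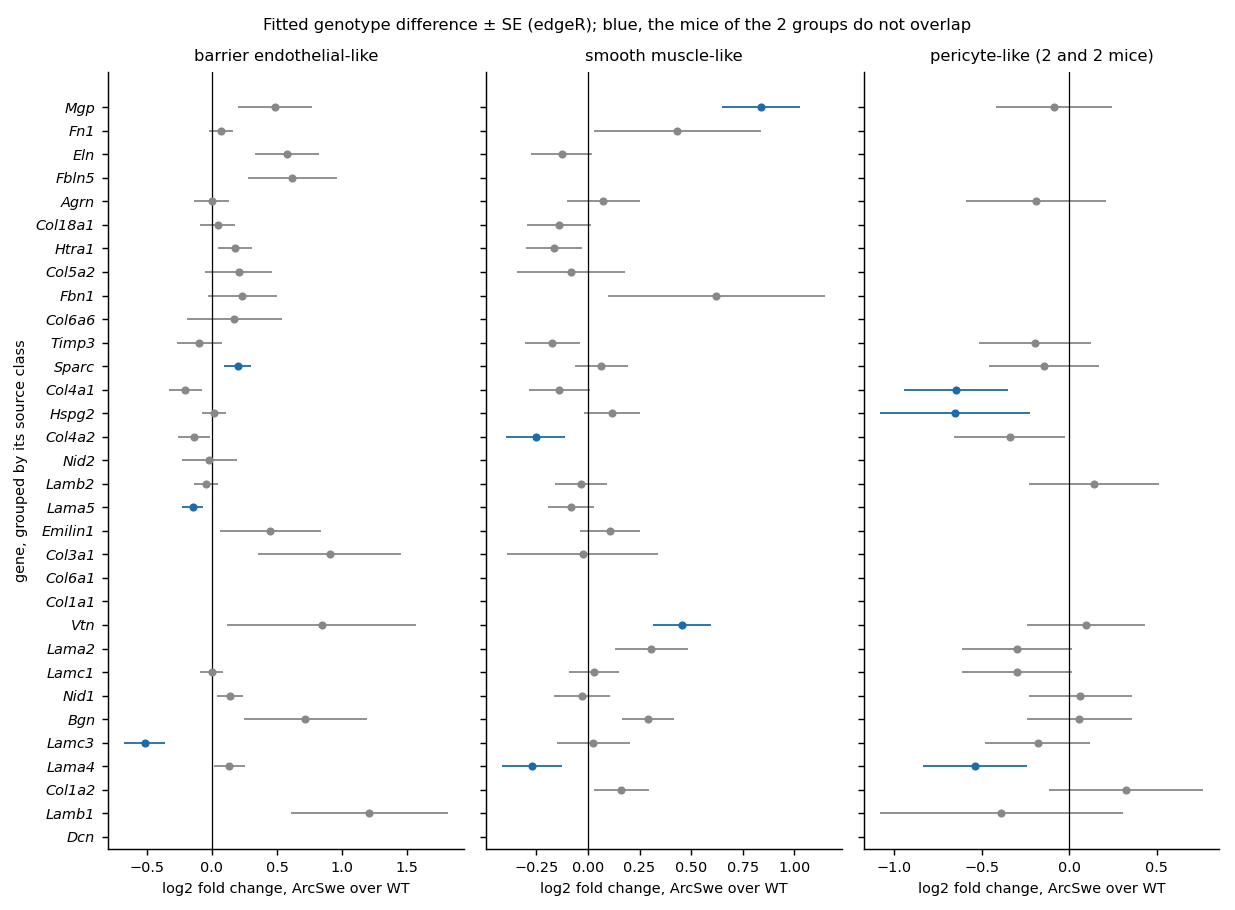
Fitted log2 fold change of ArcSwe over WT with its standard error (x axis) for each member that had enough counts (y axis, grouped by source), in barrier endothelial-like, smooth muscle-like, and pericyte-like cells; blue marks members whose mice do not overlap between groups. Mgp and Vtn lie highest among the blue points of smooth muscle-like cells, and 3 blue points of pericyte-like cells lie below 0.

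The smallest unadjusted p of any member was that of *Mgp* in smooth muscle-like cells. Its levels were 872, 472, and 725 CPM in the WT mice and 1151, 1329, and 1146 CPM in the ArcSwe mice. All ArcSwe mice lay above all WT mice. The log2 fold change fitted by edgeR was 0.84 ± 0.19 (SE), at an unadjusted p of 0.000781 and an adjusted p of 0.955. DESeq2 gave 0.83 with an adjusted p of 0.0399, and the edgeR fit without both replicates 3 gave 0.87 with an adjusted p of 0.00162, so the call depends on the tool and on the libraries used. Within s6, *Mgp* stood at 5723, 3536, and 3774 CPM in the WT mice and at 6116, 8532, and 10299 CPM in the ArcSwe mice, and s6 made up 9.57, 6.88, and 7.17% of the smooth muscle-like cells of WT mice and 11.0, 11.2, and 7.63% of those of ArcSwe mice. In the other classes the log2 fold change of *Mgp* was 0.42 in arterial-like, 0.46 in capillary-like, 0.48 in venous-like, 1.11 ± 0.67 (SE) in fenestrated-like, and -0.09 in pericyte-like cells, with overlapping groups in each. In fenestrated-like cells ArcSwe replicate 3 alone stood at 234 CPM, with the 5 other mice at 22.5 to 92.1 CPM.

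*Vtn* in smooth muscle-like cells stood at 530, 546, and 476 CPM in the WT mice and at 622, 807, and 668 CPM in the ArcSwe mice. These groups did not overlap either, at a log2 fold change of 0.46 ± 0.14 (SE; edgeR, adjusted p = 0.996). The sub-cluster s7, where *Vtn* was highest, held 7.52, 7.16, and 4.91% of the smooth muscle-like cells in WT mice and 12.6, 14.8, and 7.49% in ArcSwe mice, and the summed pericyte markers stood at 2461 to 2478 CPM in the smooth muscle-like cells of WT mice and 2453 to 3251 CPM in those of ArcSwe mice; all 10 markers were detected in both classes, and their part in the difference of *Vtn* was not tested. In s7, pericyte markers stood at 85.8% and smooth muscle markers at 58.8% of the highest level in a cluster of all cells. The libraries were clustered without integration, and 50.4% of the smooth muscle-like cells of WT replicate 3 fell into s2. The s7 share of WT replicate 3 may therefore not be comparable with that of the other mice. In pericyte-like cells the log2 fold change of *Vtn* was 0.09 ± 0.34 (SE). Lower in all 3 ArcSwe mice were *Lama4*, at 42.3, 41.9, and 55.1 CPM in WT and 40.2, 36.9, and 36.0 CPM in ArcSwe mice (log2 fold change -0.27), and *Col4a2*, at 303, 347, and 284 CPM in WT and 278, 273, and 221 CPM in ArcSwe mice (-0.25). In all, 2 members were higher and 2 lower without overlap in smooth muscle-like cells, where 3.99% of all genes were higher and 5.99% lower in this way.

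In endothelial cells, *Lamc3* showed the largest difference among the members without overlap. Its capillary-like levels were 13.6, 18.4, and 15.1 CPM in WT mice and 11.0, 8.22, and 11.3 CPM in ArcSwe mice (log2 fold change -0.59 ± 0.18, SE; edgeR, adjusted p = 0.936). *Sparc* was at 826, 744, and 770 CPM in WT and 866, 888, and 887 CPM in ArcSwe mice, a log2 fold change of 0.20. Microglial marker sums, given because *Sparc* was highest in microglia-like cells, were 0.698 to 3.52% of the microglial level in capillary-like cells, with 7 of 9 markers detected, and ranged over 159 to 565 CPM in WT and 224 to 801 CPM in ArcSwe mice; *Cx3cr1* and *Aif1* were at 0 because cells with either were removed. Their part in the difference of *Sparc* was not tested. *Lama5* stood at 79.1, 76.8, and 81.4 CPM in WT and 72.7, 72.7, and 61.6 CPM in ArcSwe mice (log2 fold change -0.17). The same 3 genes were without overlap in all barrier endothelial-like cells, 1 higher and 2 lower, where 3.46% of all genes were higher and 7.43% lower; in capillary-like cells alone these shares were 3.56 and 8.06%.

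In all barrier endothelial-like cells *Lamc3* stood at 17.6, 20.9, and 17.3 CPM in WT and 13.7, 10.2, and 14.1 CPM in ArcSwe mice (log2 fold change -0.52 ± 0.16, SE).

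In arterial-like cells, *Col4a1* was at 377, 436, and 347 CPM in WT and 323, 345, and 307 CPM in ArcSwe mice (log2 fold change -0.22 ± 0.13, SE), *Lama5* at 126, 116, and 121 CPM in WT and 110, 105, and 103 CPM in ArcSwe mice (-0.15), and *Fn1* at 785, 728, and 733 CPM in WT and 816, 822, and 786 CPM in ArcSwe mice (0.15). Only these 3 of the 25 tested did not overlap, with 2.97% of all genes higher and 7.74% lower without overlap. *Eln*, at 452, 228, and 337 CPM in WT and 593, 432, and 502 CPM in ArcSwe mice, had the smallest unadjusted p of the arterial-like members, 0.0131 in edgeR, at a log2 fold change of 0.63 ± 0.21 (SE, adjusted p = 1.00), and its groups overlapped. In cluster 12 alone *Eln* stood at 916, 549, and 740 CPM in WT and 1149, 1113, and 1179 CPM in ArcSwe mice, and *Mgp* at 6121, 4191, and 5545 CPM in WT and 6546, 6632, and 7527 CPM in ArcSwe mice; WT replicate 2 was the lowest mouse for both. In venous-like and fenestrated-like cells the groups of every member tested overlapped, whereas 3.42 and 3.29% of all genes were higher and 5.13 and 6.3% lower without overlap in these classes. *Col5a2* had the smallest unadjusted p in venous-like cells, 0.00792 in edgeR (adjusted p = 1.00), with 11.8, 10.3, and 17.5 CPM in WT and 24.9, 17.3, and 26.9 CPM in ArcSwe mice.

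Pericyte-like cells were tested in WT replicates 1 and 3 and ArcSwe replicates 1 and 3, since the mice with under 20 such cells were left out. *Col4a1* stood at 600 and 474 CPM in these WT mice and at 342 and 328 CPM in the ArcSwe mice, a log2 fold change of -0.65 ± 0.30 (SE; edgeR, adjusted p = 0.973), but the 2 mice left out stood at 352 CPM (WT replicate 2) and 505 CPM (ArcSwe replicate 2). *Hspg2* was at 111 and 114 CPM in WT and 75.9 and 68.4 CPM in ArcSwe mice (log2 fold change -0.65 ± 0.43, SE), and *Lama4* at 277 and 321 CPM in WT and 202 and 205 CPM in ArcSwe mice (-0.54 ± 0.30, SE). In the mice left out, *Hspg2* was at 41.4 CPM (WT replicate 2) and 56.2 CPM (ArcSwe replicate 2) and *Lama4* at 166 and 449 CPM, so that neither gene separated the groups over all 6 mice. With 2 mice a group, 17.5% of all genes were lower without overlap and 15% higher, and the 17 members tested gave 3 lower and 0 higher. The fit of all 6 mice called 0 members and gave log2 fold changes of -0.36 for *Col4a1* and -0.09 for *Lama4*.

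**Figure D5:**
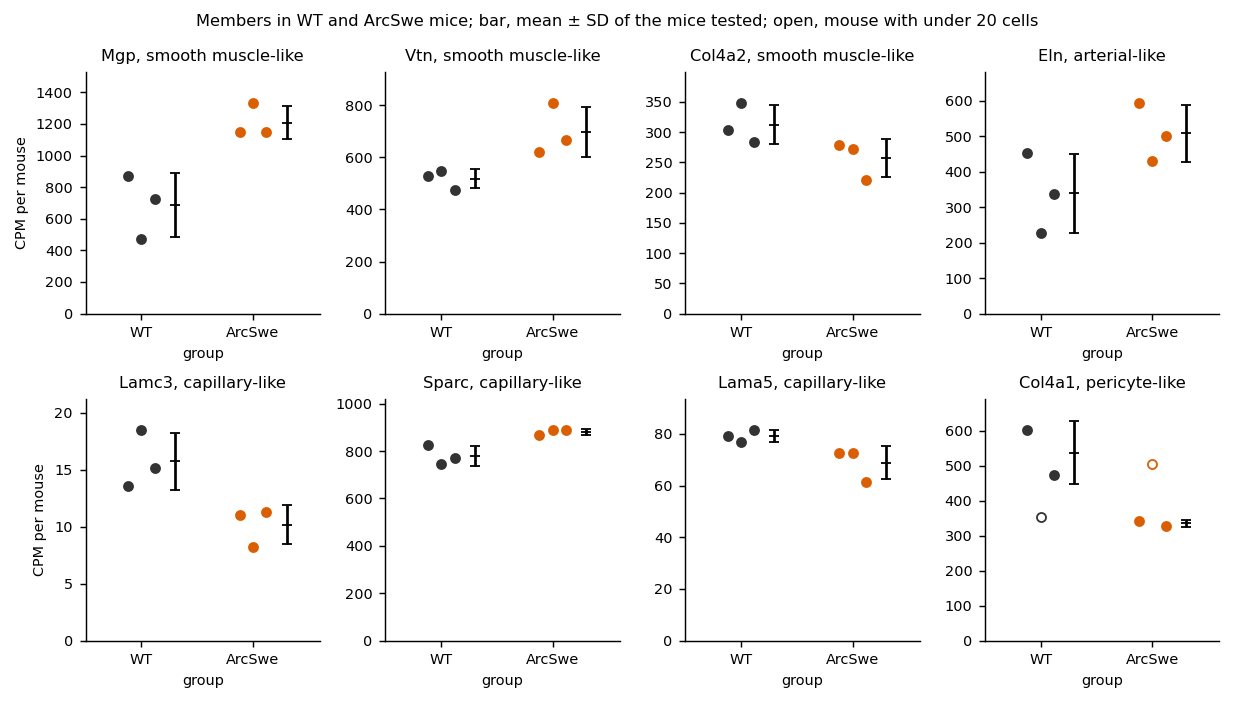
CPM per mouse in WT and ArcSwe mice for 8 pairs of gene and class, with the mean ± SD of the mice tested beside the points; open points are mice with under 20 cells, not tested. Mgp and Vtn in smooth muscle-like cells and Lamc3, Sparc, and Lama5 in capillary-like cells do not overlap, while Eln in arterial-like cells does.

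Whether the genotype difference itself differed between cell types was put to an interaction test in which each mouse formed a block. Both comparisons used only 2 WT and 2 ArcSwe mice, those with at least 20 pericyte-like cells. Between smooth muscle-like and pericyte-like cells, 0 of 27 members tested passed (0% of 10441 genes), with 5 at an unadjusted p under 0.05 against 4.21% of all genes. Of these, *Mgp* differed by 0.69 ± 0.24 and *Lama2* by 0.71 ± 0.25 on the log2 scale (SE, smooth muscle-like minus pericyte-like; edgeR, adjusted p = 0.842 for both), while *Lama5*, *Eln*, and *Lamb1* had so few UMIs in 1 of the classes that their fitted values depend on the prior count. Between pericyte-like and barrier endothelial-like cells, 0 of 30 members passed (0.00762% of 13129 genes), and 4 had an unadjusted p under 0.05, against 2.82% of all genes.

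A wider list of 94 matrix genes was read beside the members: other basement membrane chains, other collagens and elastic fibre genes, integrins and further receptors, and enzymes that cut or cross-link matrix. Of these, 67, 49, 57, 35, 37, 61, and 26 were tested in barrier endothelial-like, arterial-like, capillary-like, venous-like, fenestrated-like, smooth muscle-like, and pericyte-like cells, and 0 passed the threshold in either direction in each class (edgeR). At an unadjusted p under 0.05 the numbers were 4, 2, 6, 1, 2, 3, and 1, against 4.45, 4.1, 4.82, 3.48, 4.4, 4.5, and 4.67% of all genes. *Mmp2*, the gelatinase that degrades collagen IV, was at 2.90, 1.12, and 1.66 CPM in the arterial-like cells of WT and 5.18, 3.77, and 4.41 CPM in those of ArcSwe mice, on 3 to 23 UMIs a mouse (log2 fold change 1.29 ± 0.41, SE). *Itgb3*, the β3 integrin chain that binds vitronectin, was at 10.9, 7.66, and 15.2 CPM in the smooth muscle-like cells of WT and 3.89, 6.78, and 7.40 CPM in those of ArcSwe mice (log2 fold change -0.88 ± 0.34, SE). *P4ha2*, a collagen prolyl hydroxylase, was at 35.8, 58.5, and 32.7 CPM in the fenestrated-like cells of WT and 20.3, 20.3, and 18.3 CPM in those of ArcSwe mice (-1.11 ± 0.33, SE). These 3 were picked among genes whose groups did not overlap, and no adjusted p fell below 0.05 in edgeR. In arterial-like cells, 3 of the 49 tested were higher and 2 lower without overlap, against 2.97 and 7.74% of all genes. In smooth muscle-like cells it was 2 higher and 8 lower of 61, against 3.99 and 5.99%. In fenestrated-like cells it was 0 higher and 3 lower of 37, against 3.29 and 6.3%.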

How the data were processed

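The authors isolated microvascular cells, made 1 10x Genomics library per mouse, and deposited raw UMI counts (unit: counts, not normalized) from Cell Ranger 7.0.0 and the mm10 reference, to which they had added *Clec7a* and human NOTCH3. The 32 members and all other lists were chosen with earlier results of these data known. Libraries held 2907 to 14928 cells and 26436229 to 59161203 UMIs. Cells with 500 to 4500 genes and under 10% mitochondrial counts were kept, as in the study; doublets were not called, but clusters with markers of several types were left out, as were vascular cells in which *Cx3cr1* or *Aif1* was detected. The removal for *Cx3cr1* or *Aif1* took a larger share of ArcSwe than of WT cells in every vascular class. It took 1332 of 9875 capillary-like cells in WT and 2491 of 12147 in ArcSwe mice. In smooth muscle-like cells it took 222 of 1540 and 369 of 1675, and in pericyte-like cells 11 of 137 and 56 of 232. Barcodes shared by pairs of libraries numbered 4 to 42. Clusters came from 2000 variable genes, without the members and the 94 companion genes, 30 principal components, and Leiden clustering (leidenalg 0.10.2, resolution 1, scikit-learn 1.9.0, Python 3.11.15); mural clusters were clustered again. The libraries were clustered without the integration that the study used. A cluster took its leading type from at least 3 markers detected in at least 10% of its cells. Endothelial clusters that were not fenestrated-like were then zoned by summed zone markers, as a percentage of the highest cluster. They were arterial-like from 50%, venous-like from 40%, and otherwise capillary-like. Pericyte-like sub-clusters needed 75% of the highest pericyte marker level.

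UMIs were summed per mouse and class, leaving out a mouse with under 20 cells. After 2921 ribosomal, mitochondrial, pseudogene, and Rik genes were removed, as in the study, edgeR 4.0.16 (R 4.3.3) was run with filterByExpr, TMM, and genotype as the only term. Each SE is the absolute log2 fold change divided by the square root of the quasi-likelihood F, so it was derived from the test and not estimated separately. The edgeR test of each class, and the interaction test between smooth muscle-like and pericyte-like cells, were tried on simulated counts with set changes. These changes were larger than most of those reported here, so the trial does not show how many smaller ones would be missed. Named with values in every mouse are members with an adjusted p under 0.05, the 3 highest of each class, up to 3 of each class with the largest fold change whose groups do not overlap, and pairs with a joint role; *Bgn*, *Eln*, *Col5a2*, and the sub-clusters were added after their values were seen. Of the companions, 1 is not reported here, and those named were picked among the 2 per class with the largest fold change and no overlap. Alternatives used DESeq2 1.42.0, RLE scaling, no filter on counts, a replicate block, other cell filters and clusterings, and each mouse left out.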

Additional observations from a re-analysis of the deposited data

How the results depend on the processing

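Of 134 alternatives to the counts of members called, 129 gave 0. Without a filter on low counts, edgeR called 4 members in arterial-like cells (*Col3a1*, *Eln*, *Fbln5*, and *Bgn*, among 104 genes of 18978), 1 in fenestrated-like cells (*Mgp*, among 45 genes of 15856), and 1 in smooth muscle-like cells (*Mgp*, among 49 of 17665). DESeq2 called 1 in smooth muscle-like cells (*Mgp*, among 2 of 10114), and so did leaving out both replicates 3, an alternative chosen after seeing the data, with 1 (*Mgp*, among 33 of 9891); the cause was not tested. Leaving out each mouse in turn gave 0 to 0 members in every class and interaction. Deviations from the group mean in same-numbered mice correlated at 0.0775, 0.164, and 0.364 for replicates 1 to 3 in barrier endothelial-like cells. Replicate 3 gave the highest correlation in each endothelial class and in smooth muscle-like cells (0.171 to 0.373), and -0.0092 in pericyte-like cells. What the replicates 3 of both groups shared was not tested. The replicate block called 0 members in each class. The source was the same for 29 to 32 of the 32 members in each alternative; those that moved were *Fn1* (to venous-like cells), *Col3a1* (to pericyte-like cells), *Col1a1* (to venous-like cells), and *Col6a1* (to fenestrated-like cells). Depth limits pericyte-like and fenestrated-like cells, where 17 of 32 members could be tested.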

Other observations

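Cells that belong to no class of the comparisons held high matrix levels. A group of 25 fibroblast-like cells, led by *Dcn*, *Coch*, and *Lum*, held *Mgp* at 10687 CPM, *Dcn* at 3475 CPM, *Bgn* at 910 CPM, *Col18a1* at 892 CPM, *Col1a2* at 647 CPM, and *Col1a1* at 628 CPM, with all cells summed. It held *Vtn* at 32.3 CPM. An unnamed mural sub-cluster of 69 cells, led by *Ccl19* and *Meg3*, held *Col3a1* at 408 CPM, *Sparc* at 2385 CPM, and *Col4a1* at 828 CPM. Another of 27 cells, led by *Steap4*, held *Mgp* at 9630 CPM, *Dcn* at 1409 CPM, *Fbn1* at 242 CPM, and *Col5a2* at 314 CPM. These groups have too few cells per mouse for a comparison of genotypes.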
